A study of Mus musculus with 12 samples.

Results

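Newly made and total RNA were compared for 10 genes of the pathway that runs from fibroblast growth factor 4 (FGF4) through its receptors to the kinase ERK, together with the inhibitors and transcription factors that ERK signalling induces: Fgf4, Fgfr1, Fgfr2, Spry2, Spry4, Spred1, Dusp6, Dusp4, Etv4 and Etv5. The members were every exonic and intronic transcript value whose transcript belongs to 1 of these genes in GENCODE M1. They comprised 63 exonic and 63 intronic values out of 121429 and 91702, or 10 of 71661 features once transcripts were summed per gene.

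The cells were mouse DTCM23/49 XY embryonic stem cells (mESCs), a line grown with serum and leukemia inhibitory factor (LIF) on gelatin. 4-Thiouridine (4sU), a uridine analog that cells build into new RNA, was present at 200 µM for 15, 30 or 60 min in all groups, and no library came from cells without 4sU. At each labeling time the 4sU-containing RNA was pulled down through biotin (labeled RNA) and sequenced beside the unselected RNA of the same kind of plate (total RNA), in 2 replicates, giving 6 labeled and 6 total libraries. The replicates come from 1 culture that was divided and passaged separately, so p-values measure the spread between these libraries and not between independent lines.

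FGF4 is secreted by pluripotent cells and binds FGF receptors, which signal through Ras, Raf and MEK to ERK. In mESCs this signal primes cells to leave the naive state, and in the early embryo it directs part of the inner cell mass to primitive endoderm. ERK then limits itself: it induces Sprouty and Spred proteins, which act on the Ras and Raf steps, and dual specificity phosphatases, which remove the phosphates that activate ERK, while the PEA3 group of ETS factors (Etv1, Etv4 and Etv5) carries the signal to target genes.

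Each value was treated as an abundance per unit of transcript length, a scaling that the paper's methods do not describe. Exons and introns of a library together sum to between 19988830 and 19992901. Values under 1.01 do not occur, so a missing value means low and was taken as 0, and sequencing depth cannot be read from the values. All 8 pluripotency markers examined exceeded 20 in total RNA, with a summed abundance of 17531 to 25526. None of the 5 primitive endoderm and 4 trophectoderm markers reached 20, with Sox17 and Cdx2 at 0 in every total library. Of 5 fibroblast markers only Thy1 did, and Col3a1 and Postn were at 0. Among primed epiblast markers only Otx2 did. The labeled libraries of replicate 2 at 15 and 60 min stood apart from the other labeled libraries. Introns made up 7.24% and 6.99% of their abundance, within the 6.53% to 7.41% of total RNA, against 9.35% to 14.8% in the other 4 labeled libraries. Results are therefore also given without these 2 libraries, a choice made after seeing the data.

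In total RNA, Etv5 was the most abundant member, at an exonic abundance of 966 ± 106 (SD, n = 6). Fgfr2 (457 ± 87.5), Fgfr1 (389 ± 70.1) and Fgf4 (364 ± 26.2) followed, and neither Fgfr2 and Fgfr1 nor Fgfr1 and Fgf4 were separated beyond the range of their libraries. Etv4 (224 ± 66.6) and Spred1 (176 ± 15.8) overlapped as well. Spry2 (127 ± 9.15) and Spry4 (52.8 ± 9.49) stood clear of their neighbors. The phosphatases Dusp6 (18.7 ± 3.16) and Dusp4 (15.1 ± 3.06) were lowest and overlapped each other. Fgf4, Spry2, Spry4, Dusp6 and Dusp4 each rest on 1 transcript, whereas Fgfr1, Fgfr2, Etv4 and Etv5 sum 13, 26, 12 and 5 transcripts, so their place in this order depends on how many isoforms were listed.

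**Figure D1:**
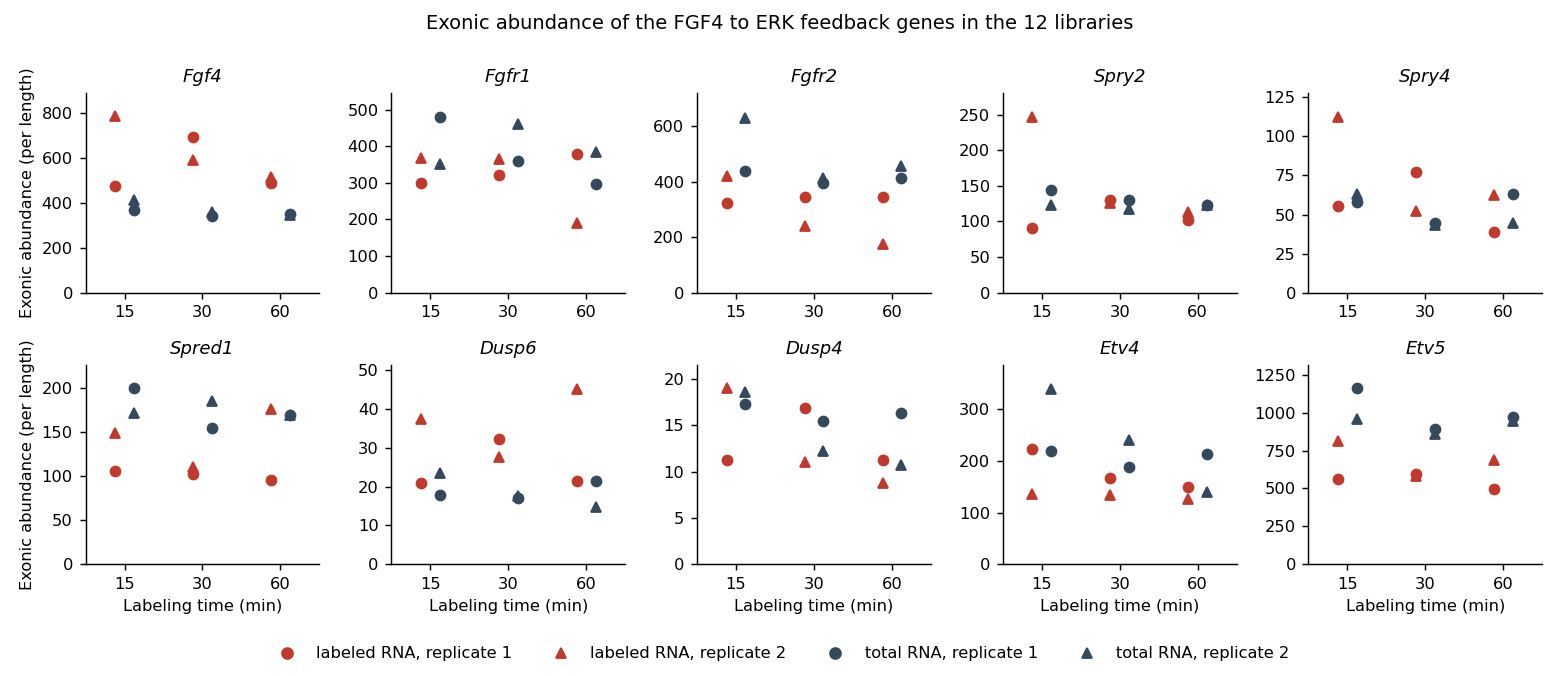
Exonic abundance, treated as per length, of the 10 genes in each of the 12 libraries, by labeling time. Labeled RNA is in red and total RNA in dark blue, with circles and triangles for replicates 1 and 2. Every labeled value of Fgf4 (472 or more) lies above every total value (413 or less), and every labeled value of Etv5 (815 or less) lies below every total value (860.4 or more).

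The first comparison asked which of these mRNAs were richer in newly made RNA than in the steady pool. Fgf4 was higher in labeled RNA, whereas Etv5, Fgfr2 and Spred1 were lower. Of the 10 members, 9 reached the filter of a mean abundance of 20 over the 12 libraries, and with limma and a Benjamini-Hochberg adjusted p under 0.05 the test called 1 higher and 3 lower. Over all 25318 genes tested, 15.9% were called, 6.38% higher and 9.49% lower. Here and below, all genes tested include transcripts with no gene in GENCODE M1, each kept as a feature of its own. The median difference was -0.30 on the log2 scale among the 9 members and -0.0066 over all genes. Pairing the labeled and total library of the same labeling time and replicate number, called pairing by culture here, moved the calls over all genes from 4017 to 2442, and among members it retained Fgf4 and Etv5. Within a single replicate 0 or 5 genes were called and no member was among them, although the sign of each of the 4 calls held in both.

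Fgf4 encodes the ligand and lies on chr7:152047291-152051148 (mm9, plus strand), with 3 exons in its single annotated transcript. In labeled RNA its exonic abundance was 472 and 784 at 15 min, 691 and 588 at 30 min, and 486 and 513 at 60 min, replicate 1 first. In total RNA it was 369.6 and 413, 343 and 359.8, and 350.1 and 347. All 6 labeled libraries were above all 6 total libraries, a separation that 3.33% of all genes showed in this direction. The difference was 0.67 on the log2 scale of abundance plus 1 (SE 0.13, 95% interval 0.38 to 0.96, limma adjusted p = 0.00722), and the ratio of means was 1.60, 1.82 and 1.43 at 15, 30 and 60 min. Without the 2 labeled libraries that stood apart the difference was 0.58 (adjusted p = 0.00880).

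Fgf4 is known for an enhancer inside the 3′ untranslated region (UTR) of its last exon, to which SOX2 and OCT4 bind side by side. The 30 bases around it, printed to show where this regulatory sequence sits within the RNA measured here, are at chr7:152050293-152050322 (mm9, plus strand), with the SOX letters CTTTGTT and the POU letters ATGCTAA in capitals.
Fgf4 SOX-POU sequence: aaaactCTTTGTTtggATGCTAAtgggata
These letters, spelled as in the Fgf4 element itself and 3 bases apart, were searched on both strands of the longest annotated 3′ UTR of 19915 genes, and 2 genes held them, Fgf4 among them (0.0100%).

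Of the receptors, Fgfr2 was lower in labeled RNA and Fgfr1 did not pass the test. Fgfr2, on chr7:137305965-140315033 (minus strand), had labeled values of 321 and 419 at 15 min, 343 and 241 at 30 min, and 345 and 173 at 60 min. Its total values were 436 and 629.7, 393 and 411, and 414 and 456. 5 of 6 labeled libraries were below the lowest total library, and only replicate 2 at 15 min overlapped. The difference was -0.61 (SE 0.18, interval -1.01 to -0.21, limma adjusted p = 0.0445), with an adjusted p of 0.0613 when libraries were paired by culture and 0.0656 in limma with no filter. Of its 26 transcripts, 5 had a mean of at least 20 in total RNA, and their labeled-to-total ratios were 0.617 to 0.795.

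Fgfr1, the receptor for FGF4 that mESCs rely on most, lies on chr8:26624126-26686186 (plus strand). Its labeled values ran from 189 to 380.1 with a median of 343 and its total values from 296 to 481 with a median of 372. The groups overlapped and the difference of -0.30 (SE 0.17, interval -0.68 to 0.08) did not pass the test (limma adjusted p = 0.261). Its lowest value came from labeled RNA of replicate 2 at 60 min. All 8 of its transcripts with a total mean of 20 or more had a labeled mean below the total mean, at ratios of 0.654 to 0.917. An antisense lincRNA, Gm16159, overlaps Fgfr1, and whether the library kit kept strand is not given in the sources used here, so reads of the pair cannot be told apart.

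The Sprouty and Spred inhibitors did not move as a group. Spred1 (chr2:116947110-117008015, plus strand), which binds neurofibromin and so restrains Ras, was lower in labeled RNA. Its labeled values were 106 and 149 at 15 min, 103 and 110.4 at 30 min, and 96.0 and 177 at 60 min, against 201 and 172, 155 and 186, and 169.99 and 170.2 in total RNA. Of the labeled libraries, 5 were below the lowest total library and replicate 2 at 60 min was within the total range. The difference was -0.54 (SE 0.16, interval -0.89 to -0.18, limma adjusted p = 0.0452), it had an adjusted p of 0.0776 under pairing by culture, and it was -0.75 (adjusted p = 0.00218) without the 2 libraries that stood apart.

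Spry2 (chr14:106291166-106296036, minus strand) had labeled values of 90.1 and 247 at 15 min, 129 and 125 at 30 min, and 101 and 113 at 60 min. Its total values stayed between 117 and 143. The difference was 0.0050 (SE 0.21, interval -0.45 to 0.46, limma adjusted p = 0.990), and its sign turned to -0.059 with library medians set equal and to -0.22 without the 2 libraries. Spry4 (chr18:38745922-38760922, minus strand) ranged from 38.5 to 112 in labeled RNA and from 43.6 to 63.2 in total RNA. It differed by 0.26 (SE 0.22, interval -0.23 to 0.75, adjusted p = 0.443). For both genes the highest of the 12 values came from labeled RNA of replicate 2 at 15 min, 1 of the 2 libraries that stood apart.

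Dusp6, a cytoplasmic phosphatase that acts on ERK, lies on chr10:98725865-98730122 (plus strand). Its labeled values were 20.9 and 37.6 at 15 min, 32.2 and 27.6 at 30 min, and 21.3 and 45.2 at 60 min. Total values were 17.9 and 23.4, 17.0 and 17.5, and 21.4 and 14.8. 4 of 6 labeled libraries were above the highest total library. The difference of 0.66 was the size of that of Fgf4 but was less certain (SE 0.25, interval 0.11 to 1.21) and did not pass the test (limma adjusted p = 0.0966). Without the 2 libraries that stood apart, which hold its highest labeled values, it was 0.40 (adjusted p = 0.209). Dusp4 (chr8:35870351-35882948, plus strand), a nuclear phosphatase, did not reach the filter. Its labeled values ran from 8.77 to 19.1 and its total values from 10.7 to 18.7, with a difference of -0.22 (SE 0.25) when genes of any abundance were fitted (limma adjusted p = 0.639).

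Etv5 and Etv4 both encode ETS factors of the PEA3 group, and both tended to lower labeled values, of which Etv5 passed the test. Etv5 (chr16:22381382-22439792, minus strand) had labeled values of 565 and 815 at 15 min, 592 and 579.9 at 30 min, and 496 and 690.3 at 60 min. Its total values were 1163 and 958, 895 and 860.4, and 975 and 943. All 6 labeled libraries were below all 6 total libraries, as in 6.32% of all genes. The difference was -0.64 (SE 0.12, interval -0.91 to -0.38, limma adjusted p = 0.00617), and -0.78 (adjusted p = 0.00167) without the 2 libraries. All 5 of its transcripts were lower in labeled RNA, at ratios of 0.558 to 0.744. Etv4 (chr11:101631056-101646685, minus strand) ranged from 126 to 223 in labeled and from 141 to 341 in total RNA. Its difference of -0.50 (SE 0.18, interval -0.89 to -0.10) did not pass the test (adjusted p = 0.0817), and the 12 of 12 transcripts had a labeled mean below the total mean.

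**Figure D2:**
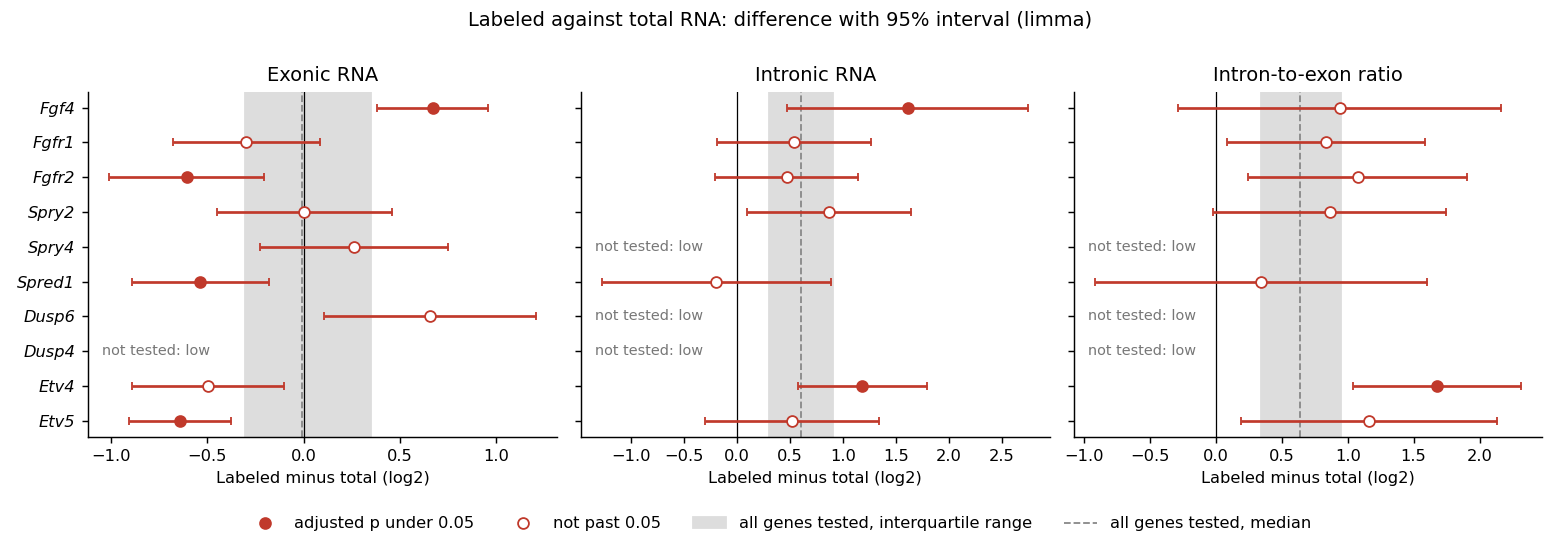
Labeled minus total abundance on the log2 scale for exons, introns and the intron-to-exon ratio, with 95% intervals from limma, filled points past an adjusted p of 0.05, and the interquartile range and median of all genes tested in grey. In exons Fgf4 (0.67) and Etv5 (-0.64) lie farthest apart among the called genes, and in introns and in the ratio Etv4 (1.18 and 1.68) is called.

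The second comparison used introns, which mark RNA that is not yet spliced. Fgf4 and Etv4 introns were higher in labeled RNA, and no member was lower. The 7 members that reached a mean intronic abundance of 20 gave 2 higher calls, where 28.7% of the 12621 genes tested were called, 28.4% higher and 0.317% lower. The median over all genes was 0.60 on the log2 scale and that of the 7 members 0.54. Over all genes 3585 were higher and 40 lower, and with library medians set equal 1333 were higher and 1421 lower, so an intronic rise is measured against a general shift of this size.

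For Fgf4, introns were at 152 and 15.4 in labeled RNA at 15 min, 54.8 and 66.4 at 30 min, and 45.3 and 92.7 at 60 min. Total RNA gave 16.0 and 69.95, 9.28 and 12.1, and 23.2 and 11.7. The 15 min libraries of replicate 2 ran against the rest, with the lowest labeled and the highest total value. The difference was 1.61 (SE 0.53, interval 0.47 to 2.75, limma adjusted p = 0.0359), and with no filter the call was lost (adjusted p = 0.0503). It was 0.96 (adjusted p = 0.198) with library medians set equal, and 2.04 (adjusted p = 0.000475) without the 2 libraries that stood apart. Etv4 introns were at 235 and 76.0, 136 and 192, and 153 and 95.9 in labeled RNA, and at 70.4 and 59.0, 87.3 and 68.8, and 43.6 and 43.8 in total RNA. 5 of 6 labeled libraries were above the highest total value, and the difference was 1.18 (SE 0.29, interval 0.57 to 1.79, adjusted p = 0.00862). With no filter the limma adjusted p of Etv4 was 0.0122.

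Spry2 introns differed by 0.87 (SE 0.36), with a limma adjusted p of 0.0852 that became 0.0372 when libraries were paired by culture. Fgfr1 (0.54), Etv5 (0.52), Fgfr2 (0.47) and Spred1 (-0.20) did not pass the test. With library medians set equal, the values were -0.11 for Fgfr1, -0.13 for Etv5 and -0.18 for Fgfr2. Without the 2 libraries, 10689 genes were called. Spry2 (1.19, adjusted p = 0.00224), Etv5 (1.09, 0.00226), Fgfr1 (1.01, 0.00240) and Fgfr2 (0.71, 0.0141) then passed as well, while Spred1 changed sign to 0.56 and did not (0.155). The annotated Fgfr2-007 transcript has introns of 3006644 bases that span 39 other genes with values, and it held 40.2% of the Fgfr2 intronic abundance in total RNA. Without that transcript the Fgfr2 difference was 0.49 (adjusted p = 0.292).

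Spry4, Dusp6 and Dusp4, with 1 transcript each, had too little intronic signal for the filter. The filter used gene sums, so which members were tested depends in part on how many isoforms were listed. Spry4 introns averaged 6.44 in total RNA. Fgfr1 and Etv4 passed as sums of 13 and 12 transcripts, with single intronic means there of at most 6.82 and 7.31. Their highest single-transcript means in labeled RNA were 11.1 and 16.8, against 12.1 for Spry4. Fgf4 and Spry2 passed on 1 transcript each. Dusp6 introns were listed at 0 in 5 of 6 total libraries and at 2.80 in the other, while 5 of 6 labeled libraries held a value, up to 9.34. Dusp4 introns ran from 2.44 to 9.67 in labeled and from 1.35 to 4.00 in total RNA. Those of Spry4 ran from 2.89 to 22.4 and from 4.45 to 8.41.

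Etv4 also stood out in the share of its RNA that was intronic. Its level depends on isoforms, because 10 of its 12 transcripts carry near-equal intronic means (5.63 to 7.31 in total RNA) that add up in the gene sum. The labeled-to-total ratios of these 10 were 2.23 to 2.53, and with values so alike they are not 10 separate observations. Intronic abundance was 94.1% ± 30.4 (SD, n = 6) of exonic abundance in labeled RNA and 29.3% ± 10.2 in total RNA, and the lowest labeled value of 55.9% was above the highest total value of 46.2%. The difference in the log2 ratio was 1.68 (SE 0.30, interval 1.04 to 2.32, limma adjusted p = 0.00497). It was the only call among the 7 members tested, where 22.7% of the 10486 genes tested were called, 22.4% higher and 0.229% lower, and the median difference was 0.64. In Etv5 the same percentage was 29.9 ± 21.8 in labeled and 10.4 ± 1.29 in total RNA. Its difference of 1.16 had an adjusted p of 0.0744, or 0.0316 under pairing by culture. Fgfr2 followed at 1.07, with an adjusted p of 0.0586, or 0.0425 under pairing. As gene sums, Fgf4 had the lowest percentage in total RNA of the 7 tested, 6.23 ± 5.42, and 13.5 ± 10.5 in labeled RNA (0.94, limma adjusted p = 0.223). This order of levels depends on isoforms as well, because Fgf4 has 1 transcript. The 5 Etv5 transcripts, for example, each held intronic means of 15.8 to 25.3 in total RNA that add up. Without the 2 libraries that stood apart the ratio was called in all 7, from 1.20 in Fgfr1 to 1.87 in Etv5, and 8279 genes were called in all.

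**Figure D3:**
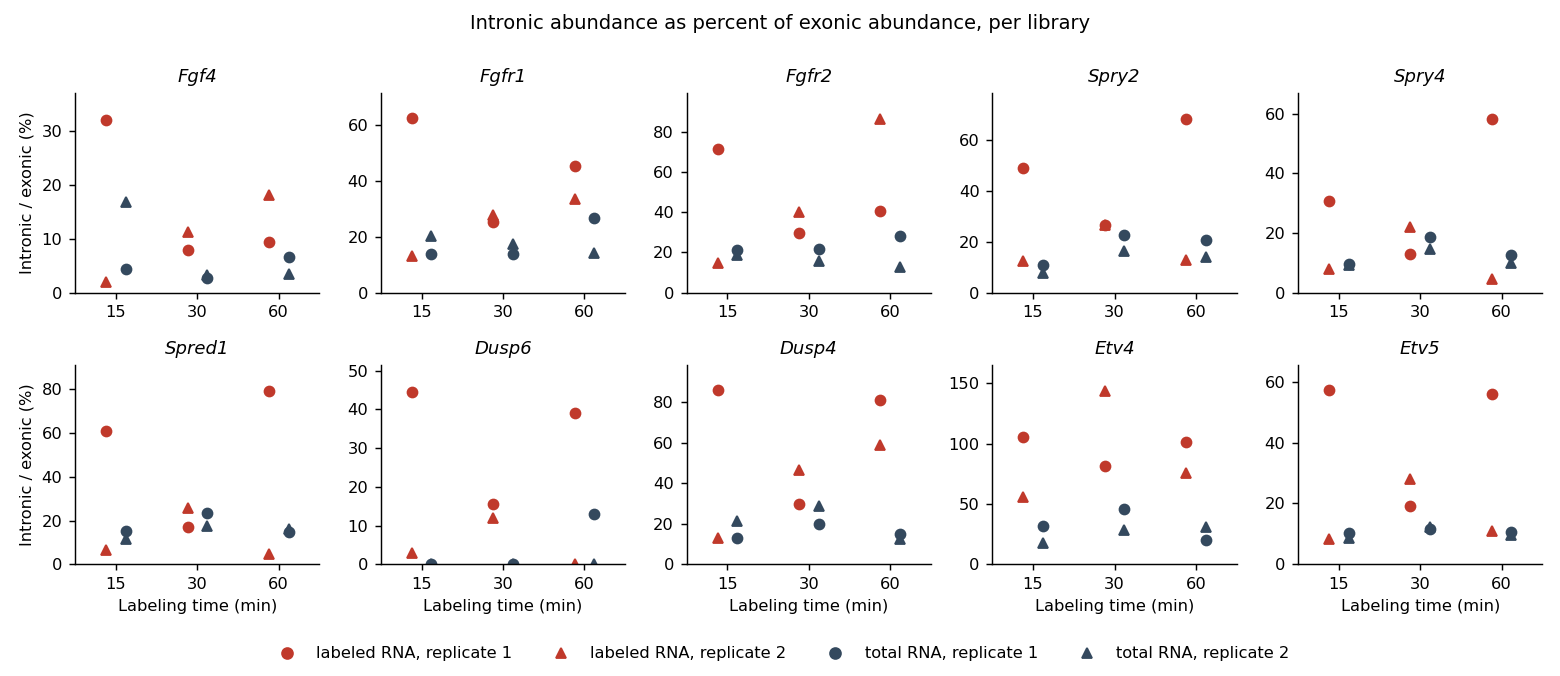
Intronic abundance as a percentage of exonic abundance for the 10 genes, by library and labeling time, with colors and symbols as in the plot of exonic values. Labeled RNA of replicate 2 at 15 min (red triangle, left) lies near the total libraries in most panels, and in Etv4 every labeled library (55.9% or more) is above every total library (46.2% or less).

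The third comparison asked whether the levels moved with labeling time. With limma, 0 of 25318 genes passed between 60 and 15 min in labeled RNA, in total RNA or in the difference between them, or 0% in each, while 252, 176 and 229 genes had an unadjusted p under 0.05. Among members the labeled change ran from -0.67 in Spry4 (interval -1.59 to 0.25) to 0.14 in Dusp6 (interval -0.94 to 1.23). The total change ran from -0.65 in Etv4 (interval -1.42 to 0.12) to -0.11 in Spry2 (SE 0.39). The intervals are wide with 2 libraries per group, and they leave room for changes of over 1 log2 unit in several members.

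Rates were derived as in first-order labeling models and serve as a description with no test. Synthesis was the labeled exonic abundance per hour of labeling. Processing was synthesis over intronic total abundance, and degradation was synthesis over exonic minus intronic total abundance. Each was divided by the median over all genes at the same labeling time, because the fixed scale of the libraries leaves no absolute unit. They use the same libraries as the differences above and add no independent evidence.

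Synthesis relative to the median gene was highest for Etv5, at 5.57 to 6.15 over the 3 labeling times, and for Fgf4, at 4.75 to 6.08. The values of Etv4 (1.32 to 1.60), Spry2 (1.02 to 1.50) and Spred1 (1.01 to 1.30) lay near the median gene. Dusp6 (0.261 to 0.316) and Dusp4 (0.0951 to 0.135) were lowest. For degradation the order changed. Fgf4 was turned over at 1.29 to 1.69 times the median rate, and Dusp6 at 1.19 to 1.71, although single libraries of Dusp6 ran from 0.819 to 3.44. Etv5 was at 0.588 to 0.683, and its 6 single-replicate values ran from 0.406 to 0.908. The replicate means of Fgfr2 (0.639 to 0.805), Spred1 (0.661 to 0.810), Fgfr1 (0.804 to 0.894) and Etv4 (0.697 to 0.989) were below the median at every time too. Their single-replicate values reached 1.04, 1.39, 1.25 and 1.54, so none of these 4 was below it in every replicate. Spry4 (0.911 to 1.59) and Spry2 (0.904 to 1.17) straddled it. Etv5 and Fgf4, alike in synthesis as gene sums, thus differed in degradation. All 6 single-replicate degradation values of Fgf4 (1.06 to 1.94) were above all 6 of Etv5. With the most abundant transcript alone, synthesis was higher in Fgf4 than in Etv5. Processing was below the median in Etv4 (0.356 to 0.538) and Fgfr2 (0.501 to 0.717). Between them, Etv4 was the slower at 15 and 30 min and Fgfr2 at 60 min. The replicate means of Etv5 lay near the median (1.04 to 1.07), with single-replicate values from 0.743 to 1.53. The replicate means of Spred1 (0.569 to 0.891), Fgfr1 (0.722 to 0.968) and Dusp4 (0.754 to 0.896) were below the median at every time too. Their single-replicate values reached 1.29, 1.20 and 1.29, and Dusp4 introns were under the filter. These orders rest on gene sums. The most abundant Etv4 transcript alone, Etv4-003, averaged 6.94 times the median for processing, and the Fgfr2-007 transcript 1.14 times for degradation. That Etv4-003 value divides by an intronic mean of 0.65 in total RNA, below the lowest listed value of 1.01. Its introns had a value in 8 of 12 libraries, so the rate lies at the floor. Processing of Fgf4 ran from 2.27 to 11.0 times the median, with the low value at 15 min, where replicate 2 held most of the intronic total.

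**Figure D4:**
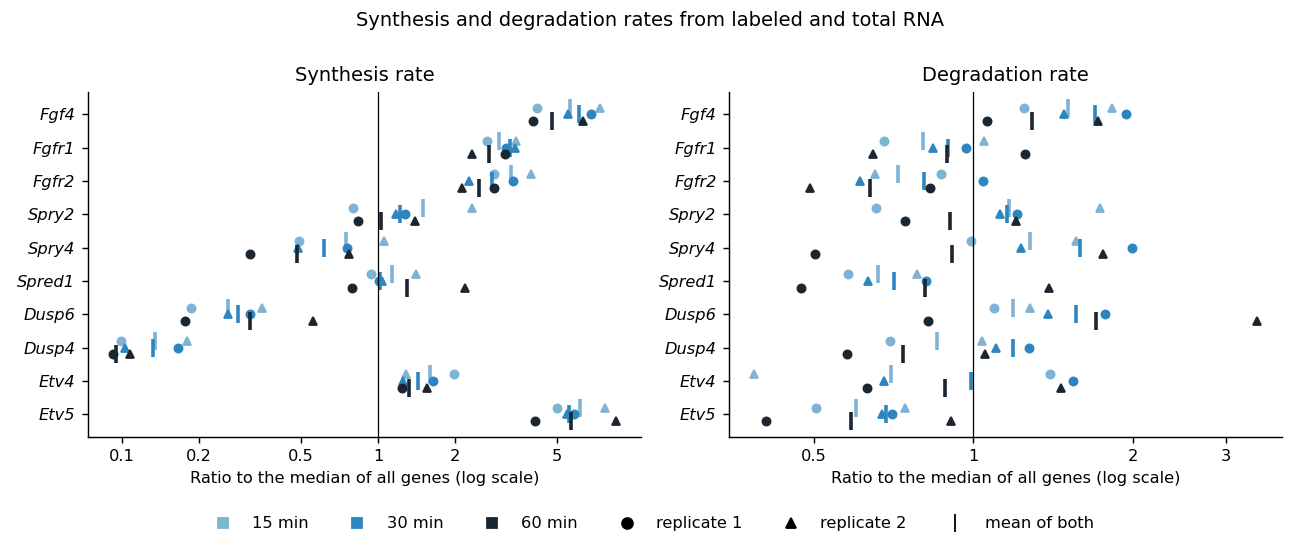
Synthesis and degradation rates of the 10 genes as a ratio to the median of all genes at the same labeling time, on log axes, with replicates as circles and triangles, labeling times by color and the mean of both replicates as a bar. Etv5 and Fgf4 lie highest for synthesis, while for degradation the Fgf4 points (1.06 to 1.94) lie to the right of the Etv5 points (0.406 to 0.908).

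mRNAs of feedback genes often hold AU-rich elements, short runs around ATTTA in the 3′ UTR that are known to recruit decay factors. The pentamer ATTTA was counted in the longest annotated 3′ UTR on the RNA strand, overlaps allowed. It occurred in 61.3% of 19915 genes, at a median of 1.01 per kb. Spred1 held 12 (2.77 per kb), Fgfr2 8 (2.84 per kb), Spry4 7 (1.98 per kb), Fgf4 6 (2.61 per kb) and Etv5 5 (2.31 per kb). Fgfr1 held 3 (1.67 per kb), Spry2 2 (2.34 per kb), Dusp4 2 (1.80 per kb) and Dusp6 1 (0.841 per kb), whereas Etv4 held 0 in 624 bases. The Fgfr2 region is that of Fgfr2-001, annotated as a nonsense-mediated decay transcript and not as protein-coding. Its count and window need not be those of the protein-coding Fgfr2 transcripts. A relation between these densities and the differences in labeled RNA was not tested. The longer form TATTTAT, which contains the pentamer, occurred 4 times in Spry4, 3 times in Spred1, 2 times in Spry2 and 1 time each in Fgf4 and Etv5, was absent from the annotated 3′ UTR of the other 5 members, and occurred in 23.9% of genes. The sequences below are the densest 30-base windows of the genes that differed in labeled RNA, with ATTTA in capitals, and of Dusp6 and Spry2 for contrast, all in mm9.
Fgf4 (chr7:152048939-152048968, plus strand): tctaagatATTTAaattATTTAaatatgta
Spred1 (chr2:117005305-117005334, plus strand): ttaagaaagcATTTAtATTTAtatgacagc
Fgfr2 (chr7:137339819-137339848, minus strand): tctggagatagctATTTActgcataggggt
Etv5 (chr16:22382748-22382777, minus strand): ttgtagttttggtATTTAaagcaaaaacaa
Dusp6 (chr10:98730053-98730082, plus strand): gttttgagctggaATTTAttataagaatgt
Spry2 (chr14:106291309-106291338, minus strand): tagtgtaaagaatATTTAtttgaagtttta
Fgf4 and Spred1 each had 2 pentamers in 30 bases, and the other 4 windows had 1. A match describes the letters and not binding.

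The rest of the pathway was read from a list of 70 genes by role, of which 48 reached the filter in exons. In labeled RNA 6 of them were called higher and 14 lower, where 6.38% of all 25318 genes tested were higher and 9.49% lower. The median difference was -0.30, against -0.0066 over all genes. The same shares are the background for the exonic counts by role that follow. Immediate early genes, which ERK switches on within minutes, gave 3 higher calls among 5 tested: Ier2 (1.36, limma adjusted p = 0.00531), Ier3 (1.32, 0.0400) and Egr1 (0.55, 0.0280). Among 8 other feedback inhibitors tested, Dusp1 (1.15, 0.00587) and Errfi1 (0.55, 0.00896), an inhibitor of the EGF receptor, were higher and none was lower.

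Signal carriers upstream of transcription were lower where they were called, with 1 exception. In the kinase cascade, Mapk3, which encodes an ERK, was lower by 0.56 (limma adjusted p = 0.00592), and the genes for Raf and MEK did not pass. Nras was lower (-0.52, 0.00641), and the Ras regulators Nf1 (-0.39, 0.220) and Rasa1 (-0.35, 0.225) did not pass. Of 7 adaptors, 4 were lower, led by Grb2 (-0.76, 0.00353) and Ptpn11 (-0.54, 0.0163), and 1 was higher, Frs3 (0.97, 0.0288). Ext2 (-0.88, 0.00913) and Glce (-0.67, 0.0316), enzymes that build the heparan sulfate to which FGFs bind, were lower with 1 other of 5. Of 8 ERK effectors, the kinases Rps6ka1 (-0.73, 0.0124) and Rps6ka2 (-0.48, 0.0494) were lower. Etv1, the other PEA3 factor, was lower by 0.93 (0.0227). Neither of the 2 other ligands tested passed. Of the other receptors only Fgfr3 reached the filter (-0.31, 0.179), and in total RNA Fgfrl1 was at 15.3, Fgfr4 at 1.90 and Klb at 0.193. In introns 6 of 32 listed genes tested were higher and none lower, where 28.4% of all genes tested were higher. Hras and Spry3 were not analysed here.

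**Figure D5:**
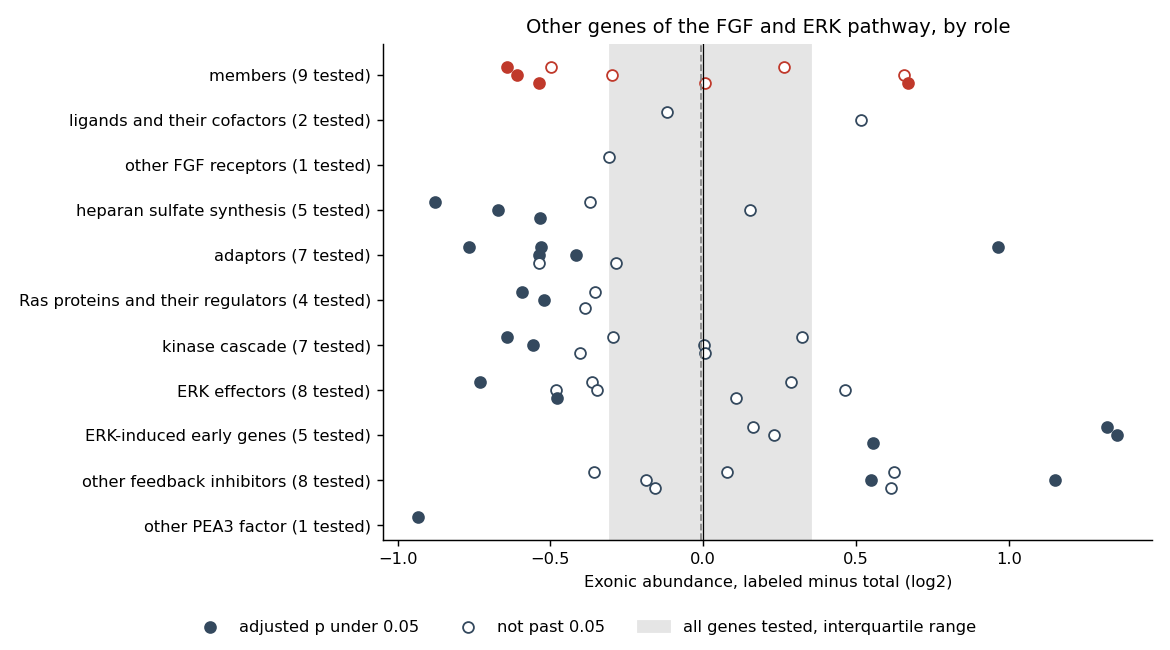
Labeled minus total exonic abundance on the log2 scale for the 9 members tested (red) and 48 other pathway genes by role (dark blue), with filled points past a limma adjusted p of 0.05 and the interquartile range of all genes in grey. Among the other pathway genes, the called early genes and feedback inhibitors lie to the right (0.55 to 1.36). Among members Fgf4 (0.67) is called to the right, and Etv5, Fgfr2 and Spred1 (-0.64 to -0.54) are called to the left.

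For the members tested, the gene with the most similar profile was found by Pearson correlation of log2 exonic abundance over the 12 libraries, among 25317 other genes. These are descriptions, picked as the maximum, and the libraries share scaling and fraction. Fgf4 was most like Ubl4 (r = 0.94) and Etv5 most like 1810013L24Rik (0.97). Spry4 was most like Myc (0.94), itself an ERK target. Spry2 was most like Cdc42se1 (0.98) and Dusp6 most like Gpatch4 (0.96). Fgfr2 was most like Smoc1 (0.95), Etv4 most like Acvr1b (0.92) and Fgfr1 most like a transcript with no gene in GENCODE M1 (0.99).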

How the data were processed

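RNA of mESCs labeled with 4sU was sequenced as labeled and total RNA (12 libraries, Ovation RNA-Seq, Illumina). The authors removed rRNA reads with STAR 2.5.0, aligned the rest to exonic and intronic sequences and quantified them with RSEM. As deposited, the values are a signal per unit of length for exons and introns, brought to a common total in each library, with no values of 1 or less. They are not counts, and no counting error could be given. The submitters' notes name mm10, while GENCODE M1 and the coordinates and sequences printed here are mm9. M1 holds 83847 of the 111672 Ensembl transcripts that have an exonic value, so gene sums can lack isoforms, and how reads shared by isoforms were divided is not given in the sources used here.

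Transcripts were summed per gene, and those with no gene in GENCODE M1 stayed as features of their own and are counted among the genes. Labeled and total RNA were compared with limma 3.58.1 (R 4.3.3) on log2(value + 1). The fit held labeling time as a factor, used a variance trend except for the ratio, kept genes with a mean abundance of at least 20 over the 12 libraries and applied Benjamini-Hochberg adjustment over all genes at 0.05. This scale shrinks the differences of genes with low values. Labeling times were compared in a fit with 6 groups. The scripts were tested on simulated data. Per the labels, the number is that of the biological replicate, and the 2 biological replicates are the separately passaged cultures. Labeled and total libraries that share a number deviated from their group means with correlations of -0.036, 0.075 and -0.24 across genes at 15, 30 and 60 min, so the pairing rests on the labels alone and the values do not show it. Alternatives were another pseudocount, other filters, library medians set equal, pairing, replicates left out, single transcripts and another variance model. INSPEcT was not run, and rates are simple ratios.

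All members are named, with the 2 pathway genes that rose and the 2 that fell most among those past the threshold for each role, every gene of a role with 4 or fewer genes, and the gene most like each member. Egr1, Nf1 and Rasa1 were named after their values were seen, and some genes that this rule takes are not reported here. The members and lists were chosen with earlier results of these data known. 3′ UTRs are the longest per gene in GENCODE M1. Figures used Python 3.11.15 with pandas 2.3.3, numpy 2.4.6 and matplotlib 3.10.9.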

Additional observations from a re-analysis of the deposited data

Results flagged for a closer look

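Of 40 groups of 6 libraries examined (10 genes, exonic and intronic, labeled and total), 4 held a library far from the other 5 on the log2 scale, where chance gives about 1 in 20, or 2. Fgfr1 exonic abundance was 189 in labeled RNA of replicate 2 at 60 min, below the other 5 labeled libraries. Fgfr2 exonic abundance was 629.7 in total RNA of replicate 2 at 15 min, above the other total libraries. Spry2 exonic abundance was 247 in labeled RNA of replicate 2 at 15 min, above the other labeled libraries. Dusp6 intronic abundance was 2.80 in total RNA of replicate 1 at 60 min, where the other total libraries were at 0. The Fgfr1 and Spry2 values come from the 2 labeled libraries whose intronic share was that of total RNA, and the part of that share in these values was not tested.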

How the results depend on the processing

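For exonic RNA in labeled against total libraries, the 4017 calls became 2442 with the replicate block that pairs libraries by culture (1205 higher, 1237 lower), 7888 with transcripts in place of genes and 7460 without the labeled libraries of replicate 2 at 15 and 60 min, and with 1 replicate left out they ranged from 0 to 5. The intronic calls became 6438 with no filter, 10689 without those 2 libraries and 1381 to 5710 with 1 replicate left out. The calls for the intron-to-exon ratio became 8279 without the 2 libraries and 204 to 3861 with 1 replicate left out. The 0 calls between 60 and 15 min became 5 in labeled RNA, 12 in total RNA and 12 for their difference with no filter, 7 in total RNA and 3 for the difference with a pseudocount of 20, and ranged from 0 to 6, 0 to 4 and 0 to 6 with 1 library left out. The replicate block changed the call of Fgfr2 and Spred1 in exons, Spry2 in introns, and Fgfr2 and Etv5 in the ratio, and of no other member.

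Fgf4 and Etv5 kept their exonic direction in every alternative and their call in all but those with 1 replicate left out. Fgfr2 lost its call with no filter (adjusted p = 0.0656) and without a variance trend (0.0587), and Spred1 with no filter (0.0708), with library medians set equal (0.0696) and without a trend (0.0533). Fgf4 introns lost their call with no filter (0.0503), as they did with library medians set equal. These p-values are from limma, and the cause was not tested. Uncalled values that changed sign were Spry2 exons (0.0050 became -0.059 with medians set equal and -0.22 without the 2 libraries, and ranged from -0.31 to 0.32 by replicate), Fgfr1 introns (-0.11 with medians set equal, -0.0076 to 1.08 by replicate), Fgfr2 and Etv5 introns (-0.18 and -0.13 with medians set equal), and Spred1 introns (0.56 without the 2 libraries, -0.92 to 0.53 by replicate) and ratio (-0.63 to 1.31 by replicate). With 1 library left out, the 60 against 15 min change ranged from -0.38 to 0.67 for Dusp6 in labeled RNA, from -0.22 to 0.00058 for Spry2 in total RNA, and, for the difference, from -0.19 to 0.86 for Dusp6 and from -0.99 to 0.020 for Spry4.

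With the most abundant transcript in place of the gene sum, synthesis relative to the median became 7.80 for Fgf4, 0.662 for Fgfr1, 0.628 for Fgfr2, 0.172 for Dusp4, 0.467 for Etv4 and 2.87 for Etv5. Processing became 2.82 for Fgfr1, 0.213 for Fgfr2, 6.94 for Etv4 and 2.03 for Etv5, and degradation 1.14 for Fgfr2. The Etv4 processing value divides by introns that averaged only 0.65 in total RNA. Depth is unknown, so it cannot be said which low values are set by counting.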
